A study of Homo sapiens with 13 samples.

Results

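The cytosolic ribosomal protein genes encode the proteins of the large (60S) and small (40S) subunit of the ribosome outside mitochondria. They were taken by symbol: every protein-coding RPL or RPS gene with a number, together with RPLP0, RPLP1, RPLP2, RPSA and FAU, without S6 kinases, Y-linked genes, paralogs ending in L and pseudogenes. This gave 78 genes, 46 of the large and 32 of the small subunit, of 63241 gene rows per library, and all 78 passed the filter on low counts. Messenger RNA was sequenced from AC16, a human line in which ventricular cardiomyocytes were fused with SV40-transformed fibroblasts, in 13 libraries. There were 3 control libraries, 3 of cells given FCCP (a protonophore, which carries protons across the inner mitochondrial membrane and uncouples respiration), 4 of preconditioned cells and 3 of preconditioned cells given FCCP. The series describes the preconditioning as optogenetic, with a mitochondrial construct named mOpto, and the labels call the genotype wildtype throughout. Whether the construct or light was also present in the control and FCCP groups is not stated there, and neither is a dose or a time. Separate cultures are not stated for the libraries of a group, so the p-values describe library-to-library spread that may be technical.

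Each of these proteins is made in step with the others, since a ribosome holds one copy of nearly every one of them. Their mRNAs are short, abundant and begin with a C followed by a run of pyrimidines, the 5′ terminal oligopyrimidine (TOP) tract, which lets the kinase mTORC1 and the binding protein LARP1 set how much of them is stored or translated. The human genome also holds many processed pseudogenes of these genes, so short reads from them often align to several places.

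The start of the mRNA is shown for members with large and with small differences between the groups below, because the TOP tract is the regulatory sequence they have in common. Each line runs 5′ to 3′ and gives 10 bases before and 20 bases from the RefSeq start site (GRCh38.p14), with the tract from the start in capitals.
RPL34, chr4:108620566-108620595, plus strand: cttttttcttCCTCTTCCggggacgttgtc
RPL24, chr3:101686699-101686728, minus strand: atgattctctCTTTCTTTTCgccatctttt
RPL35, chr9:124861938-124861967, minus strand: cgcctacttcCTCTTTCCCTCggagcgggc
FAU, chr11:65122115-65122144, minus strand: tcgcttcttcCTCTTTCTCgactccatctt
RPS6, chr9:19380217-19380246, minus strand: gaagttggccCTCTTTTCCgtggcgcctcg
RPS3, chr11:75399508-75399537, plus strand: cgagccacttCCTTTCCTTTCagcggagcg
RPL39, chrX:119791611-119791640, minus strand: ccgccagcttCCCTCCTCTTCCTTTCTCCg
RPS12, chr6:132814559-132814588, plus strand: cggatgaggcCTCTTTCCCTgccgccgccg
RPLP0, chr12:120201092-120201121, minus strand: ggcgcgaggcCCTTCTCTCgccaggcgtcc
RPSA, chr3:39406710-39406739, plus strand: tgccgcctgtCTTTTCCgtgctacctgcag
RPL41, chr12:56116623-56116652, plus strand: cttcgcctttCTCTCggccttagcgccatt

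A RefSeq start was found for 63 of the 78 members. Of these, 47 (74.6%) began with C and at least 4 further pyrimidines (C or T) on the coding strand, against 5.14% of 27305 genes in the table. Counting tracts that begin within 5 bases of the listed start, the shares were 85.7% and 25.2%. The longest tract, of 19 bases, belonged to RPL39, a protein of the exit tunnel, and the shortest shown, of 5 bases, to RPL41, the smallest protein of the ribosome. Among 20 matched genes for translation factors and other abundant TOP mRNAs 17 (85%) had such a start, and among 68 matched mitochondrial ribosomal protein genes 6 (8.82%).

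Libraries held 14970803 to 20636229 gene counts. Levels per kb used the length of an annotated transcript chosen for each gene. Over all libraries the highest members were RPS2 (2773 CPM per kb), RPS18 (2570 CPM per kb) and RPL35 (2318 CPM per kb). CPM is the usual count scaled to library size. Some chosen transcripts were long, with 7686 bases for RPL37 and 4916 bases for RPL27A, so the order of members depends on this choice. The lowest were RPL36A (8.53 CPM per kb), RPS10 (3.45 CPM per kb) and RPL17 (1.51 CPM per kb). These 3 have over 50% of their exon bases in common with another gene on the same strand, among them the read-through genes RPL36A-HNRNPH2, RPS10-NUDT3 and RPL17-C18orf32, and reads that overlap several genes are not in a gene's count. RPL26, RPS15A, RPL23A, RPL30, RPS23 and RPL22 also lay under 60 mean CPM. Rows of member pseudogenes held 89.7% of the counts of RPL17 and its pseudogenes together, 87.7% for RPL36A, 44.4% for RPS28 and 35.1% for RPL26. The levels and changes of these members are therefore uncertain.

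Control libraries 1 and 2 gave 7.33% and 7.53% of their gene counts to the 78 genes, and control 3 gave 5.76%. In FCCP 1, 2 and 3 the share was 8.14%, 8.98% and 9.55%. Preconditioning libraries 1 to 4 had the lowest shares, at 4.01%, 4.25%, 4.59% and 4.13%. In preconditioning+FCCP 1 and 2 it was 5.66% and 5.36%, and in preconditioning+FCCP 3 it was 7.72%. FCCP libraries lay above all others and preconditioning libraries below all others, while the control and preconditioning+FCCP groups overlapped. The subunits kept similar proportions: the counts of large-subunit genes were 1.61 to 1.82 times those of small-subunit genes. A share of counts cannot tell fewer cells of a kind from less of these mRNAs per cell.

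Reads aligned to several places, which the deposited tables report as one number per library and assign to no gene, differed between libraries along with this share. They made up 11.5%, 8.44% and 4.00% of reads in control 1, 2 and 3. In the 3 FCCP libraries the values were 7.13%, 10.01% and 9.79%. The 4 preconditioning libraries had 3.26%, 3.28%, 3.16% and 3.78%, and the 3 preconditioning+FCCP libraries 4.69%, 5.22% and 8.28%. The largest gap, between 5.22% and 7.13%, parts a higher set (control 1 and 2, FCCP 1 to 3, preconditioning+FCCP 3) from a lower set (control 3, preconditioning 1 to 4, preconditioning+FCCP 1 and 2). Each library of the higher set gave at least 7.33% of its counts to ribosomal protein genes and each of the lower set at most 5.76%. Within the sets the order did not hold: control 1 had the most such reads and the lowest share of its set, and preconditioning 3 the fewest of all libraries and the highest share of its group. All FCCP libraries are in the higher set and all preconditioning libraries in the lower, so for these groups the set and the treatment cannot be told apart.

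**Figure D1:**
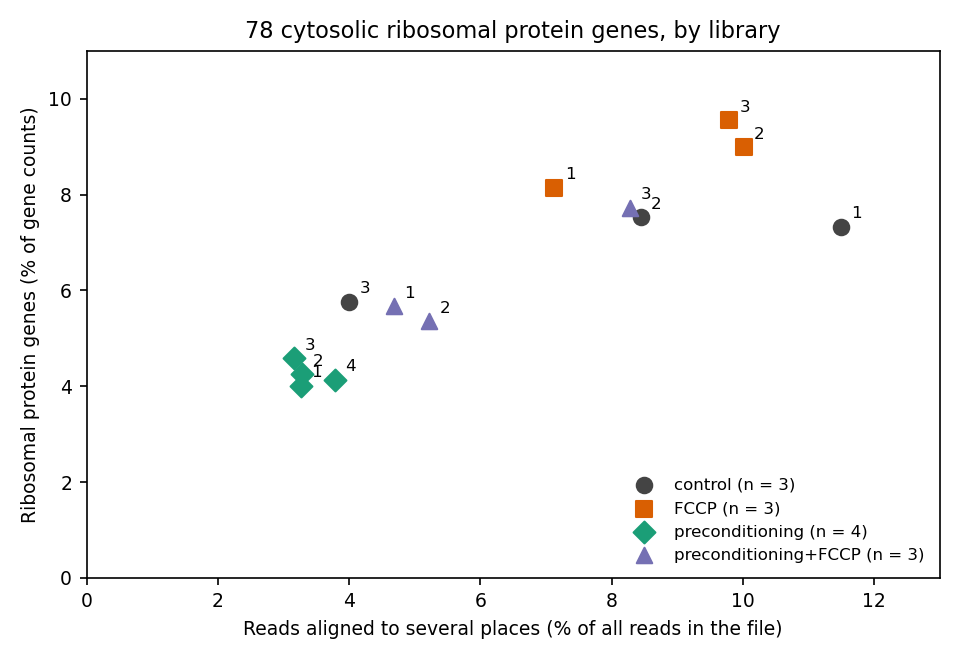
Share of gene counts from the 78 ribosomal protein genes (percent, y axis) against the percentage of reads aligned to several places (percent, x axis), 1 point per library with its replicate number and 1 symbol per group. The preconditioning libraries lie lowest on both axes, and control 3 and preconditioning+FCCP 3 lie apart from the others of their groups.

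Control 3 and preconditioning+FCCP 3 each stood apart from the other libraries of their group, and the differences ran over many members. The mean of control 1 and 2 exceeded control 3 in 60 of 78 members, with a median log2 difference of 0.48, against 49.7% of 15457 genes and a median of -0.01. Preconditioning+FCCP 3 exceeded the mean of preconditioning+FCCP 1 and 2 in 78 of 78 members, with a median of 0.77, against 51.1% of all genes and a median of 0.02. RPL34 (1.31 and 1.21) and RPL23 (1.17 and 1.15) lay at the upper end of both differences, and RPSA (0.17 and 0.21) had small values in both. RPLP0 (0.55 and 0.15) differed more between the controls, and RPS12 (-0.44 and 0.85) was higher in control 3. Across the 78 members the Spearman correlation of the differences was 0.66, and 0.25 across all 15457 genes. This is a description across genes, which are not independent and share their libraries, while no library enters both differences. The share of counts from mitochondrially encoded genes also moved, with 9.58% and 8.95% in control 1 and 2 against 3.00% in control 3, and 6.42% in preconditioning+FCCP 3 against 1.33% and 2.32%. So did the summed level of 14 fibroblast markers, at 14071 and 15102 CPM in control 1 and 2 against 7775 CPM in control 3, and at 4549 CPM in preconditioning+FCCP 3 against 3563 and 2884 CPM. The sum of 8 smooth muscle markers was 3265 and 2485 CPM against 1588 CPM, and 1583 CPM against 804 and 601 CPM. The part of these in the difference was not tested.

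**Figure D2:**
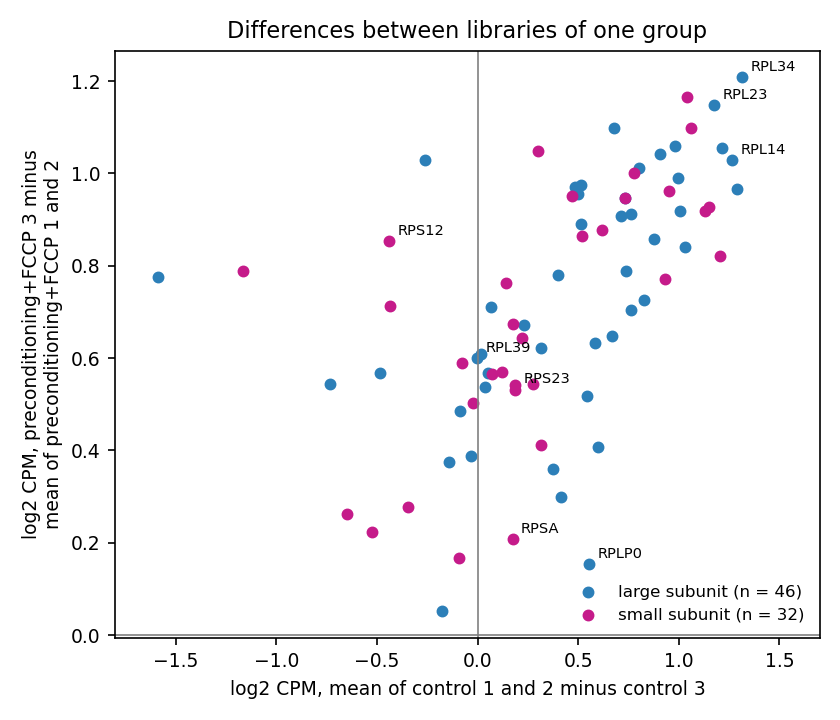
Difference in log2 CPM between libraries of one group for each of the 78 genes: the mean of control 1 and 2 minus control 3 (x axis) and preconditioning+FCCP 3 minus the mean of preconditioning+FCCP 1 and 2 (y axis), coloured by subunit. All 78 points lie above 0 on the y axis and 60 lie above 0 on the x axis, with RPL34 and RPL23 at the upper right.

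**Figure D3:**
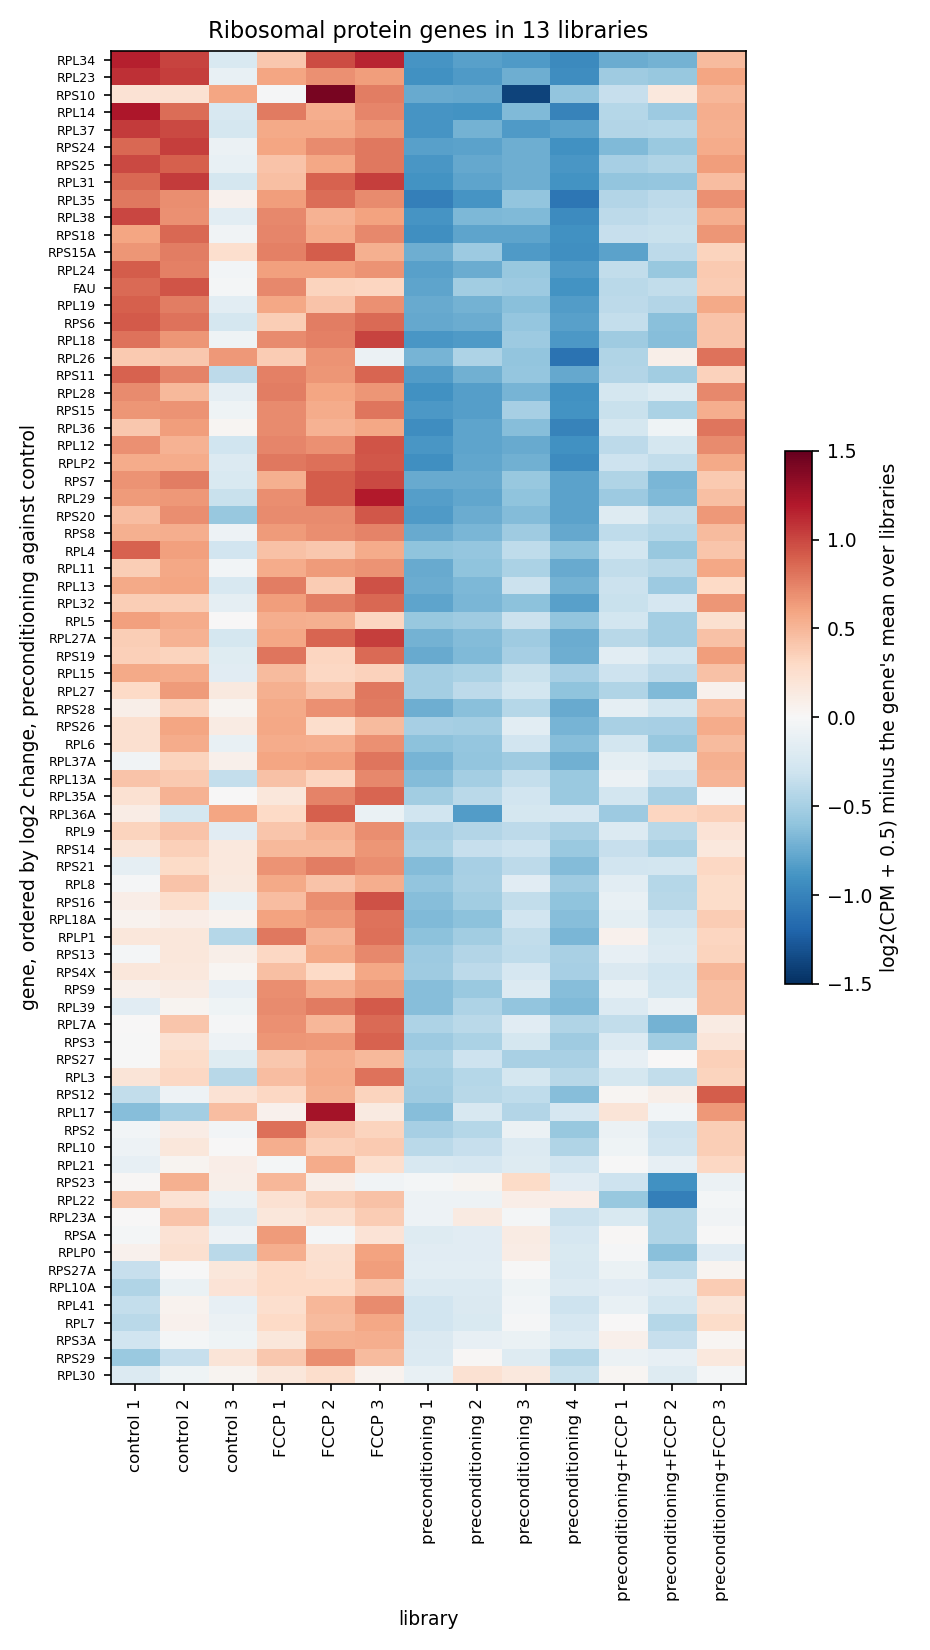
Level of 76 of the 78 genes (rows) in 13 libraries (columns), as log2(CPM + 0.5) minus the mean of the gene over libraries, with red above and blue below the mean. Rows are ordered by the change between preconditioning and control, and the columns of control 3 and preconditioning+FCCP 3 differ in shade from the others of their groups.

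The first comparison asks what FCCP did in cells without preconditioning. Of the ribosomal protein genes RPL39 alone rose, by 0.87 ± 0.19 on the log2 scale (adjusted p = 0.023), and none fell. Levels were otherwise above control by small amounts: 69 of 78 fitted changes were above 0 and the median was 0.33, a 25.9% higher level, against -0.04 over all genes. The large subunit had a median of 0.31 (1 of 46 called) and the small subunit 0.44 (0 of 32 called). Calls are those of edgeR's quasi-likelihood test over 16756 genes, with the threshold at an adjusted p of 0.05. Of all genes tested, 1.60% were called higher and 1.92% lower, so 1 member called (1.28%) is near the background.

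RPL39 stood at 303, 351 and 327 CPM in control 1, 2 and 3 and at 558, 586 and 649 CPM in FCCP 1, 2 and 3. The groups did not overlap, and control 3 lay within its group. RPS3, which lies at the entry of the mRNA channel, stood at 1087, 1279 and 1036 CPM in control against 1720, 1709.5 and 2016 CPM in FCCP libraries (0.68 ± 0.20, adjusted p = 0.075). Its groups did not overlap, yet it missed the threshold. For 33 members every FCCP library lay above every control library, and for none below, where 8.84% of all genes lay wholly above.

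RPL41 had 284, 376 and 334 CPM in control and 433, 512 and 593 CPM in FCCP libraries (0.63 ± 0.19, adjusted p = 0.073). RPLP0, the base of the stalk that recruits translation factors, had 1971, 2233 and 1430 CPM in control and 2767, 2231 and 2882 CPM in FCCP libraries (0.48 ± 0.23, adjusted p = 0.24). Its groups overlapped by a margin of a few CPM. RPSA, the laminin receptor family protein of the small subunit, had 1113, 1315 and 1072 CPM in control and 1767, 1110 and 1306 CPM in FCCP libraries (0.26 ± 0.22, adjusted p = 0.54), and its FCCP values lay on both sides of control 2. RPL17 had the largest fitted change (1.06 ± 0.58, adjusted p = 0.32), at the low level given above. FAU, which makes a small-subunit protein fused to a ubiquitin-like one, was at -0.18 ± 0.26 and RPL23 at -0.14 ± 0.31 (adjusted p = 0.75 and 0.84).

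The call of RPL39 ended without control 1, without FCCP 2 and without FCCP 3 (adjusted p = 0.070, 0.063 and 0.076), while its change stayed between 0.76 and 0.91 in every alternative. The call also ended with the compared groups alone, where edgeR called 0 members. DESeq2 called 11 members higher (3.73% of all genes) and limma-voom 2 (1.20% of all genes). Without control 3, FCCP 1 and preconditioning+FCCP 3 together edgeR called 20 higher and 3 lower, against 7.29% and 10.8% of all genes. FCCP 1 also differed from the others of its group: mitochondrially encoded genes took 6.49% of its counts, against 1.94% and 1.55% in FCCP 2 and 3.

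The second comparison asks what preconditioning did without FCCP. Of the 78 members 52 fell and none rose: 32 of 46 in the large subunit, with a median log2 change of -0.81, and 20 of 32 in the small subunit, with a median of -0.66. Over all members the median was -0.78, a 41.9% lower level, against -0.02 over all genes, where 13.0% of genes were called lower and 10.5% higher. In 60 members every preconditioning library lay below every control library, against 17.3% of all genes. At least 2-fold lower levels were fitted for 29 members.

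Among the members with the smallest adjusted p were RPS15A, RPL23, FAU, RPL24 and RPL35. RPL23, one of the proteins known to bind the p53 regulator MDM2, stood at 1237, 1186 and 537 CPM in control 1, 2 and 3 and at 307, 321, 349 and 302 CPM in preconditioning 1 to 4 (-1.63 ± 0.29, adjusted p = 0.0027). Control 3 lay at less than 50% of the other controls and still above every preconditioning library. FAU stood at 283, 301 and 153 CPM in control against 90.2, 109, 107 and 83.7 CPM in preconditioning libraries (-1.34 ± 0.24, adjusted p = 0.0027). RPL24 had 1180, 1056 and 608 CPM in control and 356, 372, 421 and 347 CPM in preconditioning libraries (-1.34 ± 0.24, adjusted p = 0.0027). Both showed the order of RPL23, with control 3 between the other controls and the preconditioning libraries.

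The largest fall was that of RPL34, at 778, 700.3 and 297 CPM in control and 188, 198, 192 and 179 CPM in preconditioning libraries (-1.64 ± 0.32, adjusted p = 0.0039). RPS10, a low member, was at -1.61 ± 0.44 (adjusted p = 0.017). RPS6, the small-subunit protein that S6 kinases phosphorylate, had 3401, 3153 and 1495 CPM in control and 1057, 1076, 1201 and 1026 CPM in preconditioning libraries (-1.30 ± 0.28, adjusted p = 0.0061). RPL5 and RPL11, which bind 5S ribosomal RNA together and also MDM2, fell by 0.91 ± 0.21 and 0.97 ± 0.23 on the log2 scale (adjusted p = 0.0067 and 0.0091). RPL11 stood at 1198, 1386 and 901 CPM in control against 548, 606, 666 and 547 CPM in preconditioning libraries.

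Other members lay near their control level. RPLP0 had 1677, 1683, 2043 and 1609 CPM in preconditioning libraries, within the range of its controls (-0.10 ± 0.21, adjusted p = 0.76). RPSA had 992, 1009, 1234 and 953 CPM (-0.16 ± 0.20, adjusted p = 0.60), and RPL41 had 296, 313, 354 and 293 CPM (-0.08 ± 0.17, adjusted p = 0.78). All 3 overlapped control. RPL30 (0.07 ± 0.17), RPS29 (0.01 ± 0.18) and RPS3A (-0.03 ± 0.16) had the highest fitted changes, none past the test. RPL39 fell by 0.53 ± 0.17 on the log2 scale (adjusted p = 0.037), but its call ended when any 1 of the compared libraries other than control 3 was left out, and its change was 0.12 with the length and GC trend taken out. RPS3 was at -0.51 ± 0.19 (adjusted p = 0.060).

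**Figure D4:**
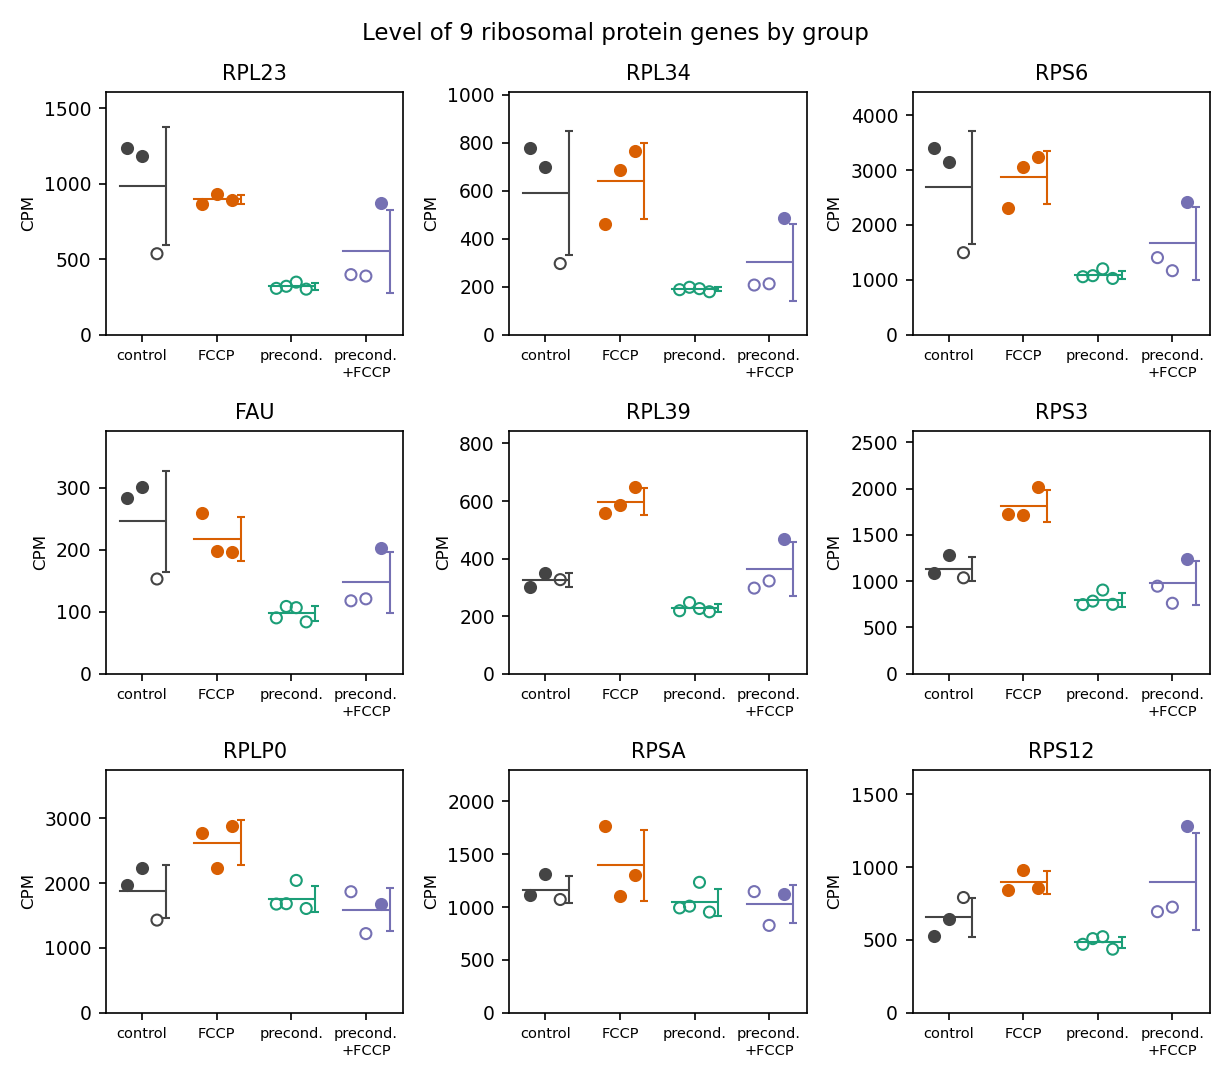
CPM of 9 members in each library by group (points), with the group mean (line) and SD (error bar). Filled points are libraries of the higher set and open points of the lower set by the percentage of reads aligned to several places, and in RPL23, RPL34, RPS6 and FAU control 3 lies below the other controls.

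The size of this difference moved with the library sets. With the set as a term in the fit, 14 members fell and the median was -0.42, where 1.41% of all genes were called lower. Within the lower set, where control 3 is the one control library, the median was -0.51. Without control 1 the count was 34 and without control 2 it was 29, and these 29 were called in every fit that left out 1 library. The share of all genes called is not reported for these fits, so a change in the members cannot be told from one in all calls. When control 3, FCCP 1 and preconditioning+FCCP 3 were all left out, 60 fell with a median of -0.91 (24.3% of all genes were called lower), but the set and the preconditioning then coincide and cannot be told apart. When each library was corrected for a trend with gene length and GC, 30 fell (share of all genes not reported) and the median was -0.50. In this trend RPL14 had 7072 bases, against 916 bases for its level per kb, so the correction depends on the transcript chosen. All scaling alternatives left the median between -0.57 and -0.79.

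**Figure D5:**
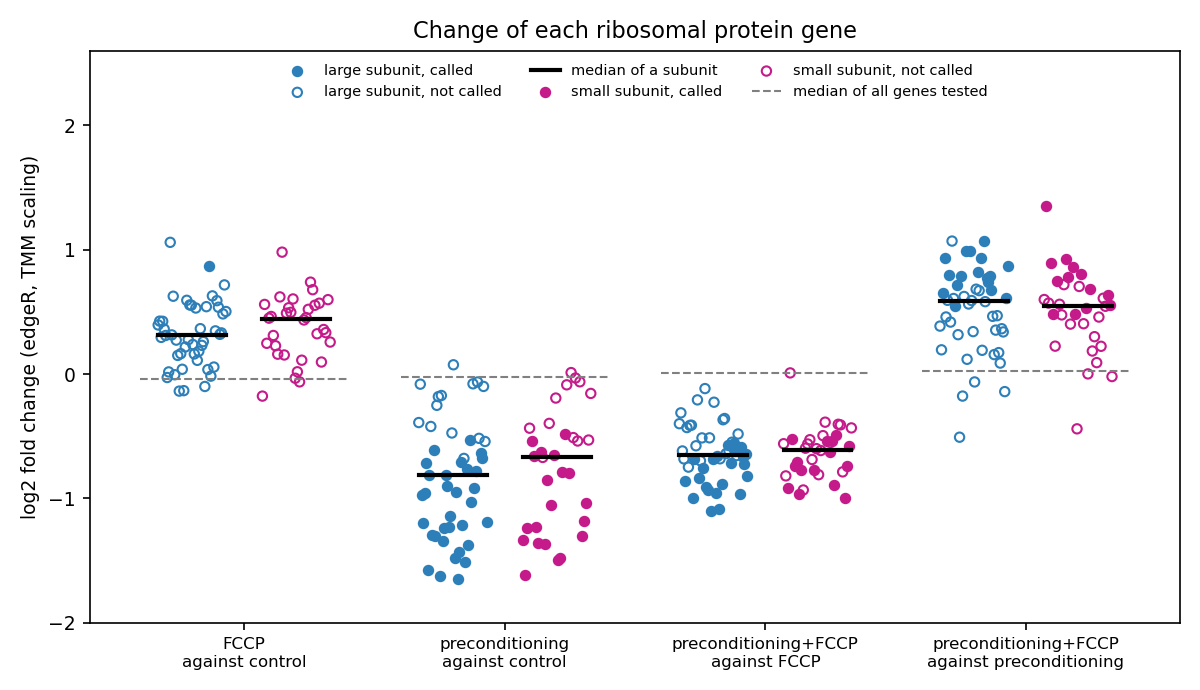
Fitted log2 fold change of each of the 78 genes (points) in 4 comparisons, by subunit, filled where called at an adjusted p under 0.05, with the median of each subunit (black) and of all genes tested (dashed). Most points lie below the dashed line in the comparisons of preconditioned with unconditioned cells and above it in the others.

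The next comparison, of preconditioning+FCCP with FCCP, asks how preconditioned cells differed once both had been given FCCP. Here 38 of 78 members fell and none rose, 23 of the large and 15 of the small subunit, with a median of -0.63, a 35.5% lower level, against 0.01 over all genes. Of all genes 17.7% were called lower and 17.9% higher. In 45 members every preconditioning+FCCP library lay below every FCCP library, against 21.3% of all genes. Of the 52 members that fell with preconditioning alone, 27 also fell here, which is 51.9% of that list and 71.1% of this one. Of all 78 members 48.7% fell here and 66.7% with preconditioning alone, so the overlap is near what these shares alone would give. The 15 members called in neither comparison include RPSA, RPL10, RPS2 and RPS4X. These comparisons share no library.

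RPS3 had the smallest adjusted p, with 1720, 1709.5 and 2016 CPM in FCCP 1, 2 and 3 and 946, 761 and 1235 CPM in preconditioning+FCCP 1, 2 and 3 (-0.89 ± 0.20, adjusted p = 0.0041). RPL27 (-0.91 ± 0.21), RPL7A (-0.97 ± 0.23), RPL35A (-0.88 ± 0.21) and RPS21 (-0.77 ± 0.20) came next, with adjusted p of 0.0044 to 0.0070. RPL7A had 2629, 2316 and 2949 CPM in FCCP and 1260, 996 and 1784 CPM in preconditioning+FCCP libraries, and the groups did not overlap. The largest falls were RPL29 (-1.10 ± 0.30), RPL34 (-1.08 ± 0.35) and RPL18 (-0.999 ± 0.28), with adjusted p of 0.011, 0.025 and 0.013.

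RPL34 stood at 462, 687 and 767 CPM in FCCP against 207, 212 and 485 CPM in preconditioning+FCCP libraries. Preconditioning+FCCP 3 lay above FCCP 1, so the groups overlapped although the call passed. RPLP0 fell here, from 2767, 2231 and 2882 CPM to 1868, 1222 and 1679 CPM (-0.72 ± 0.23, adjusted p = 0.022), as did RPL41 (-0.55 ± 0.19, adjusted p = 0.031) and RPL39 (-0.72 ± 0.18, adjusted p = 0.0079). RPL5 fell by 0.62 ± 0.22 on the log2 scale (adjusted p = 0.040). RPS6 (-0.79 ± 0.31), RPL23 (-0.70 ± 0.31), RPL11 (-0.62 ± 0.25), FAU (-0.56 ± 0.26) and RPSA (-0.43 ± 0.22) did not pass, with adjusted p of 0.056, 0.093, 0.067, 0.10 and 0.13.

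RPS12 (0.01 ± 0.23), RPL26 (-0.12 ± 0.31) and RPL21 (-0.21 ± 0.18) had the highest fitted values, none of them called. RPS12 stood at 841, 983 and 860 CPM in FCCP against 694, 725 and 1282 CPM in preconditioning+FCCP libraries. Preconditioning+FCCP 3 was the highest of all 13 libraries in this gene while the other 2 lay below every FCCP library.

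The count moved with single libraries. It was 69 without preconditioning+FCCP 3, 8 without preconditioning+FCCP 2, 12 without preconditioning+FCCP 1, 11 without FCCP 3 and 22 without FCCP 2. The share of all genes called is not reported for these fits, so a change in the members cannot be told from one in all calls. The 8 members called in every fit that left out 1 library were RPL22, RPL27, RPL35A, RPL39, RPL7A, RPS14, RPS21 and RPS3. With the set as a term, 8 of 78 fell, a share near the 10.4% of all genes called lower, and the median was -0.31. Without control 3, FCCP 1 and preconditioning+FCCP 3 together 73 fell with a median of -0.99 (27.5% of all genes). In that fit too the set and the preconditioning coincide and cannot be told apart. Within the higher set, with preconditioning+FCCP 3 as the one preconditioned library, the median was -0.22. Beside these changes, 12 of 14 fibroblast markers were called lower and the remaining 2 were not called: their summed level was 2884 to 4549 CPM in preconditioning+FCCP and 9676 to 11259 CPM in FCCP libraries. Of 8 smooth muscle markers 4 were called lower (601 to 1583 CPM summed, against 2312 to 2901 CPM), and of 7 endothelial markers 3 (37.5 to 50.05 CPM, against 63.4 to 113 CPM), with none called higher. Their part in the result was not tested.

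The last comparison between groups asks what FCCP did in preconditioned cells. Of the 78 members 30 rose and none fell, 17 of the large and 13 of the small subunit, with a median of 0.56, a 47.7% higher level, against 0.02 over all genes. Of all genes 20.2% were called higher and 19.2% lower. For 39 members every preconditioning+FCCP library lay above every preconditioning library, against 26.6% of all genes. This comparison shares the preconditioning+FCCP libraries with the comparison before it and the preconditioning libraries with that of preconditioning and control.

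RPL36 rose most clearly, from 203, 223, 247 and 193 CPM in preconditioning 1 to 4 to 322, 369 and 676 CPM in preconditioning+FCCP 1, 2 and 3 (1.07 ± 0.23, adjusted p = 0.0019). RPS12, which stood at 470, 509, 522 and 437 CPM in preconditioning libraries, rose by 0.89 ± 0.22 (adjusted p = 0.0045). RPL28 (0.99 ± 0.25), RPL39 (0.68 ± 0.17) and RPL37A (0.74 ± 0.19) followed, with adjusted p of 0.0051, 0.0057 and 0.0072. In each of these 5 the preconditioning+FCCP libraries lay above all preconditioning libraries, and preconditioning+FCCP 3 lay highest.

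RPL39 had 219, 247, 227 and 216 CPM in preconditioning libraries and 298, 322 and 470 CPM in preconditioning+FCCP libraries, so it is the one member called higher with FCCP in both settings. The members with the largest changes were RPS10 (1.35 ± 0.44, adjusted p = 0.023), RPL36 and RPL17 (1.07 ± 0.55, adjusted p = 0.13). Of the fixed members RPL23 (0.79 ± 0.29, adjusted p = 0.041) and RPL11 (0.65 ± 0.23, adjusted p = 0.037) also rose. RPS6 (0.61 ± 0.28), FAU (0.60 ± 0.24), RPL5 (0.35 ± 0.21), RPS3 (0.30 ± 0.19), RPL41 (0.16 ± 0.17), RPSA (-0.02 ± 0.20) and RPLP0 (-0.14 ± 0.21) were not called. The lowest were RPL22 (-0.51 ± 0.21, adjusted p = 0.061), RPS23 (-0.44 ± 0.22, adjusted p = 0.12) and RPL23A (-0.18 ± 0.19, adjusted p = 0.48).

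Without preconditioning+FCCP 3 the count was 3 and the median 0.21, and 14, 17 and 16 members were called without preconditioning 1, 2 and 4. For these fits the share of all genes called is not reported, so a change in the members cannot be told from one in all calls. With library totals as the only scaling 51 rose (22.4% of all genes). RPL36 and RPS12 were the 2 members called in every fit that left out 1 library. With the set as a term, 21 rose and 2 fell with a median of 0.27 (20.6% of all genes were called higher). Without control 3, FCCP 1 and preconditioning+FCCP 3, 19 of 78 rose, a share near the 23.3% of all genes, and 2 fell. Fibroblast markers were called lower in 12 of 14 cases here too and the remaining 2 were not called, with 9893 to 10518 CPM summed in preconditioning libraries against the 2884 to 4549 CPM given above. Of 8 smooth muscle markers 2 were called lower (1244 to 1725 CPM summed in preconditioning libraries), and of 7 endothelial markers 2 (61.6 to 75.2 CPM). Their part was not tested.

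The interaction asks whether the FCCP effect differed with preconditioning. No member was called by edgeR, with 5 at an unadjusted p under 0.05, and none by DESeq2 or limma-voom. Of all genes 9.38% were called higher and 9.60% lower. The median was 0.15, against 0.07 over all genes, and fitted values ran from -0.66 to 1.12. Other fits made calls: 13 members with the library set as a term and 19 with control 3, FCCP 1 and preconditioning+FCCP 3 left out, against 26.9% and 37.3% of all genes called either way. Without control 3 edgeR called 9 members (23.0% of all genes), without preconditioning+FCCP 1 it called 2 (18.2%) and without preconditioning+FCCP 3 it called 1 (16.4%).

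Features that the choice of members did not use were compared with the size of the changes. Members with a TOP tract at the listed start had median changes of 0.36, -0.76, -0.65 and 0.60 in the 4 comparisons in the order above, and the 16 matched members without one 0.34, -0.79, -0.60 and 0.46. The ranges of both classes overlapped in each comparison. The Spearman correlation of the log2 change with mRNA length, GC content, number of pseudogene rows, level or exon overlap lay between -0.22 and 0.23 across the 78 members in each comparison, a description across genes with no test. The length is that of the chosen transcript, which was long for some members as given above. Counts in pseudogene rows were 1.28 to 1.86 per 100 member counts over the libraries. Adding them to their members gave 54, 40 and 30 called members in the last 3 comparisons between groups. The counts of the first comparison and of the interaction under this setting are given in the closing section. The share of all genes called is not reported for it.

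Genes that share the TOP tract or the pathway were taken from lists chosen by function. Of 27 tested genes for translation factors and other abundant TOP mRNAs, 9 fell (33.3%, against 13.0% of all genes) and 4 rose (14.8% against 10.5%) with preconditioning alone, with a median of -0.26. NACA, a subunit of the nascent chain complex, fell by 1.82 ± 0.34 on the log2 scale (adjusted p = 0.0031), the growth-linked TPT1 fell by 1.25 ± 0.28 (adjusted p = 0.0064) and the snoRNA host GAS5 fell by 1.07 ± 0.23 (adjusted p = 0.0056). In preconditioning+FCCP against FCCP 6 fell (22.2%, near the 17.7% of all genes) and none rose, the ribosome scaffold RACK1 (-0.73 ± 0.19) and the initiation factor subunit EIF3K (-0.71 ± 0.19) among them. In preconditioning+FCCP against preconditioning 3 rose and 3 fell (11.1% each way, below the 20.2% and 19.2% of all genes), with GAS5 at 1.64 ± 0.23 and the nuclear import receptor IPO5 at -1.17 ± 0.18. With FCCP alone none was called.

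Of 75 tested mitochondrial ribosomal proteins, 35 fell (46.7%, against 13.0% of all genes) and 1 rose with preconditioning (median -0.49), MRPL18 (-1.61 ± 0.23), MRPL32 (-1.78 ± 0.27) and MRPS21 (-1.62 ± 0.28) among them. In preconditioning+FCCP 24 fell against FCCP (32.0%, against 17.7% of all genes) and 3 rose (median -0.28). Against preconditioning 15 rose (20%, the share of all genes being 20.2%) and 5 fell (median 0.13). Of the 6 tested paralogs left out by their names, 4 fell with preconditioning (66.7%, against 13.0% of all genes), RPS27L (-1.69 ± 0.33) and RPL22L1 (-2.10 ± 0.46) among them. In preconditioning+FCCP 3 fell against FCCP (50%, against 17.7% of all genes). Against preconditioning 2 rose and 1 fell (33.3% and 16.7%, against 20.2% and 19.2% of all genes). With FCCP alone no paralog was called.

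Among 20 regulators of ribosomal protein synthesis, the transcription factor MYC (-2.12 ± 0.40, adjusted p = 0.018) and the mTORC1 inhibitor DDIT4 (-1.35 ± 0.35, adjusted p = 0.046) fell with FCCP and none rose. These are 10% of the list, against 1.92% of all genes called lower and 1.60% called higher. With preconditioning 5 rose (25.0%, against 10.5% of all genes) and 4 fell (20%, against 13.0%). The translation repressor EIF4EBP1 (-1.28 ± 0.23) and the mTORC1 activator RHEB (-0.77 ± 0.20) fell, and the S6 kinase relative RPS6KA3 rose (0.81 ± 0.17). LARP1 (0.75 ± 0.22, adjusted p = 0.023) and MTOR (0.65 ± 0.21, adjusted p = 0.035), named after their values were seen, also rose. In preconditioning+FCCP, MLST8, a subunit of both mTOR complexes, fell against FCCP (-1.62 ± 0.20) and against preconditioning (-1.35 ± 0.19), and the S6 kinase RPS6KB1 rose against FCCP (0.88 ± 0.18). Against FCCP 7 rose (35.0%, against 17.9% of all genes) and 1 fell, and against preconditioning 5 rose and 6 fell (25.0% and 30.0%, against 20.2% and 19.2%). Of 27 assembly factors and dedicated chaperones, 1 fell with FCCP, 2 rose and 3 fell with preconditioning, 3 rose and 3 fell in preconditioning+FCCP against FCCP, and 6 rose and 4 fell against preconditioning. With preconditioning (7.41% higher, 11.1% lower) and against FCCP (11.1% each way) these shares lay below those of all genes, and against preconditioning (22.2% and 14.8%) near them. The 1 assembly gene that fell with FCCP is 3.70% of its list, against 1.92% of all genes. LTV1 (-1.07 ± 0.28) and RPF2 (-0.96 ± 0.26), which act in assembly of the small and large subunit, fell with preconditioning.

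The cell type named in the labels, myocyte, was checked against markers. Of 16 cardiomyocyte markers 5 passed the filter, TNNT2 was at 0 in every library and 11 stayed under 1 CPM in every library. The summed level of the 16 was 4.30 to 13.2 CPM. All 14 fibroblast and all 8 smooth muscle markers passed the filter, and 7 of 10 endothelial and 3 of 10 immune markers, with CD3E and MS4A1 at 0 in every library.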

How the data were processed

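The deposited tables hold unnormalised read counts for each gene, made by the authors with HISAT2, HTSeq and the human build hg19, per the submitters' processing notes, which name no versions. Poly-T selected mRNA was used, per the labels' protocols, and the strand setting and annotation release are not given in the sources used here. Thus overlapping genes on opposite strands may not have been told apart. Symbols, lengths and overlaps came from GENCODE 29 and start sites from RefSeq (GRCh38.p14), and no coordinates of the count tables are given.

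Reads with no gene (2.13% to 5.20% of reads), with several genes (11.0% to 12.4%) or with several alignments (3.16% to 11.5%) stayed out of library sizes and tests. Groups came from the treatment in the labels. All 13 libraries were fitted together with a term per group in edgeR 4.0.16 (R 4.3.3; TMM scaling, default expression filter, quasi-likelihood test), with Benjamini-Hochberg adjustment over 16756 genes. The error after ± is the standard error, computed from the log2 change and the F statistic (size of the change over root F). The code was tested on simulated data. Libraries of a group differed beyond counting noise, with a lowest chi-square per degree of freedom of 3.32. This spread was unequal. Pairs of preconditioning libraries reached 32.0, while pairs with control 3 gave 167 and 153. Pairs with FCCP 1 gave 80.2 and 105, and pairs with preconditioning+FCCP 3 gave 124.5 and 87.0. The fit estimates the spread of a gene over all groups together, so the errors and adjusted p do not reflect this inequality.

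Named members were, per comparison, the 5 called ones with the smallest adjusted p, the 3 highest and 3 lowest changes and 10 fixed members, together with up to 3 called genes per list. Individual values of some members are not reported here. The members and lists were chosen with earlier results of these data known. Alternatives were other scalings, filters and tests (DESeq2 1.42.0, limma 3.58.1), a length and GC trend (mgcv 1.9.3), pseudogene counts added to members, a replicate block, the library set as a term and libraries left out. Fits within the sets were added after seeing the data.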

Additional observations from a re-analysis of the deposited data

Results flagged for a closer look

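In the preconditioning group, which has 4 libraries, preconditioning 3 lay far from the others in 3 of 44 values examined, where chance would mark about 1 in 20. That number of flags is near what chance would give, and the values examined are not independent. RPL18, a large-subunit protein, stood at 667 CPM in preconditioning 3 and at 531 to 541 CPM in the other 3 libraries. RPLP0, the base of the stalk, stood at 2043 CPM against 1609 to 1683 CPM. Counts in pseudogene rows were 1.86 per 100 member counts in preconditioning 3, against 1.73 to 1.74. Preconditioning 3 was the highest of its group in 62 of 78 members. It had the smallest share of reads aligned to several places of all libraries, at 3.16%. Left out, it moved the median change between preconditioning and control from -0.78 to -0.86 and the count of members that fell from 52 to 50.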

How the results depend on the processing

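Medians over the members kept their sign in the 4 comparisons between groups under every alternative run, and the 2 results of named members that changed sign with a call were RPL39 between preconditioning and control (0.12 with the length and GC trend taken out) and RPS12 between preconditioning+FCCP and FCCP (-0.38 with control 3, FCCP 1 and preconditioning+FCCP 3 left out; not called in the fit reported). The cause was not tested. Counts of called members below are in the order A (FCCP, control), B (preconditioning, control), C (preconditioning+FCCP, FCCP), D (preconditioning+FCCP, preconditioning) and interaction, with 1, 52, 38, 30 and 0 as reported. With the library set as a term they were 3, 14, 8, 23 and 13, with medians of -0.42, -0.31 and 0.27 in B, C and D. With the 3 libraries left out they were 23, 60, 73, 21 and 19, with medians of -0.99 and 0.21 in C and D. In B and C the set and the preconditioning then coincide. With the length and GC trend taken out the counts were 1, 30, 14, 21 and 1, with medians of -0.50 and -0.33 in B and C. Within the higher set A gave 0 and C 0 (median -0.22), and within the lower set the medians of B and D were -0.51 and 0.24. In B and C 1 arm of these fits was a single library, assumed to vary like the other libraries of its set, so their calls say little. At an adjusted p under 0.01 the counts were 0, 30, 9, 9 and 0. With the compared groups alone A and C were 0 and 16. A was 11 by DESeq2, 2 by limma-voom, 2 with TMM factors computed without members and mitochondrial genes, 2 with pseudogenes added (interaction 2), 3 without a filter (interaction 1), and 3 with library totals, with or without reads aligned to several places (interaction 1 for both). Library totals alone gave 51 in D.

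Same-numbered libraries did not deviate together: 1 of 18 pairs correlated above 0.1 (-0.19 to 0.15). With the replicate number as a block the counts were 0, 33, 23, 8 and 0.

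Leaving out each library in turn gave counts of 0 to 4, 29 to 57, 8 to 69, 3 to 33 and 0 to 9, and medians of 0.20 to 0.43, -0.91 to -0.68, -0.96 to -0.50, 0.21 to 0.68 and -0.15 to 0.29. The share of all genes called is given above for some alternatives only. The other counts do not show whether the members moved more than all genes. Library totals moved the median of all genes by 0.11 in B and 0.18 in C and the share of calls that were higher from 45.4%, 44.7% and 50.3% to 58.0%, 55.2% and 64.1% in A, B and C. Of the values of named members under the alternatives, 1604 kept direction and call, 125 lost the call, 73 gained it and 67 uncalled ones changed sign.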
